A study of Homo sapiens with 20 samples.

Results

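Genes of transforming growth factor beta (TGF-beta), activin and bone morphogenetic protein (BMP) signalling were followed in U2OS cells, a human osteosarcoma line, after ionizing radiation (IR) and after knockdown of NFKBIA. The 10 genes were the rows whose symbol was TGFB1, TGFB2, TGFB3, INHBA, BMP2, BMP4, SMAD6, SMAD7, ID1 or ID3, out of 20314 rows in the table. All 10 were found once, and all 10 were among the 14992 genes that passed the filter on low counts. INHBA and BMP2 also stand in the study's own lists of secreted senescence factors, which were drawn from these libraries.

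RNA-seq read counts were available for 20 libraries, 5 in each of 4 groups of U2OS cells grown in DMEM with serum. The groups were untreated cells, cells 90 min (1.5 h) after a dose of 20 Gy, cells 7 days after the same dose, and cells carrying an shRNA against NFKBIA, whose labels name no irradiation. NFKBIA encodes IκBα, the inhibitor that holds NF-κB in the cytoplasm, and the study's knockdown lines were puromycin-selected clones of a doxycycline-inducible lentivirus, induced for several days. The study's methods describe doxycycline-treated cells with scrambled shRNA as controls for its knockdowns, but no label among the 20 names such a library, and those of the untreated cells name neither the vector nor doxycycline. From the labels, clone, vector and doxycycline cannot be told apart from the knockdown itself. The study calls the libraries of a group biological replicates, while the labels name no separate cultures, so p-values measure the spread between these libraries.

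The TGF-beta family consists of secreted dimers that bind paired serine/threonine kinase receptors, which phosphorylate SMAD transcription factors. TGF-beta and activin ligands signal through SMAD2 and SMAD3, and BMPs through SMAD1, SMAD5 and SMAD9, both with SMAD4 as the common partner. The inhibitory SMADs, SMAD6 and SMAD7, are feedback targets that block this signal, and the ID genes, which encode inhibitors of basic helix-loop-helix factors, are the classical transcriptional targets of BMPs. In senescent cells, family ligands belong to the secreted factors that act on neighbouring cells, and in bone they govern osteoblast formation and matrix.

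Total counts ranged from 22535659 to 40390961 per library. NFKBIA was at 11.2 to 13.0 CPM (reads scaled to the size of the library) in the knockdown libraries and at 23.5 to 42.0 CPM in untreated ones, and CDKN1A, the p21 gene induced by DNA damage, was at 199.9 to 242 CPM in untreated cells against 656 to 714 CPM at 1.5 h and 805 to 837 CPM at 7 days. Untreated replicate 5 stood apart: its root mean square log2 difference from the mean of its group was 0.561, against at most 0.386 for any other library, and it had the lowest total count. It was the only untreated library on its sequencing lane, which it shared with 3 libraries of 1.5 h, so lane and library cannot be told apart there, and neither the 7-day nor the knockdown libraries shared a lane with untreated ones. Of 9 osteoblast markers, 5 (RUNX2, ALPL, COL1A1, SPARC and SPP1) were above 1 CPM in every library, while SP7, IBSP and COL1A2 never reached 1 CPM. The 9 summed to 4005 to 4751 CPM in untreated cells, 3677 to 3986 CPM at 1.5 h, 2756 to 3179 CPM at 7 days and 2804 to 2970 CPM in the knockdown. COL1A1 and SPARC made up most of each sum; mean COL1A1 was 1974 CPM in untreated cells, 1467 CPM at 7 days and 617 CPM in the knockdown, and mean SPARC 2137, 1275 and 2165 CPM. Mean SPP1 was 12.0, 74.3 and 10.9 CPM in the same groups, and mean ALPL 26.9, 45.4 and 6.84 CPM. None of 4 haematopoietic and none of 2 measured endothelial markers was above 1 CPM in every library, and of 4 epithelial markers EPCAM was, at 1.68 to 4.45 CPM.

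RefSeq start-site windows, from 250 bases before to 50 bases after the start in GRCh38.p14, were given for 9 of the 10 genes; BMP2 was not matched. Shown here are the 250 bases before the start of SMAD6, which fell most at 7 days, and of INHBA and BMP4, the ligands among the 10 genes that were called in all 3 comparisons with untreated cells. Capitals mark SMAD motifs. The SMAD6 stretch is chr15:66701986-66702235 on the plus strand, the INHBA stretch chr7:41703091-41703340 on the minus strand and the BMP4 stretch chr14:53955051-53955300 on the minus strand.
SMAD6: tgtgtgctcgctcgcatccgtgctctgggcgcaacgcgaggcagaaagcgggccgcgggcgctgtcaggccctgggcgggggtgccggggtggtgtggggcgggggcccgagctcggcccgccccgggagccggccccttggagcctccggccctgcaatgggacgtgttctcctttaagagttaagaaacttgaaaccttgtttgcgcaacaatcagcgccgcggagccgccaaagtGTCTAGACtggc
INHBA: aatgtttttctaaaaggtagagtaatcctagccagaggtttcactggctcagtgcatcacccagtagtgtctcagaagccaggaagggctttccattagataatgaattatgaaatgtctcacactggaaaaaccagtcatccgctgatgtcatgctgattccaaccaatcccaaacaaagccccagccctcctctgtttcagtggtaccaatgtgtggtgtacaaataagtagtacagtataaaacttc
BMP4: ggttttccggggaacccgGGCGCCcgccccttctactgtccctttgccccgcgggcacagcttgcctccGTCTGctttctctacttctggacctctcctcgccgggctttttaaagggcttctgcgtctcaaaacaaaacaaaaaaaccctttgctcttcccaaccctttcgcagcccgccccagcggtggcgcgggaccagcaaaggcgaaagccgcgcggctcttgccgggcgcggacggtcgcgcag
The capitals in SMAD6 are the SMAD-binding palindrome GTCTAGAC, whose first base lies 12 bases before the start. That palindrome was found in 0.175% of 14833 promoter windows and in 1 of the 9 member windows. The capitals in BMP4 are the GC-rich SMAD site GGCGCC, present in 25.9% of all windows and, of the members, in BMP4 alone, and the SMAD box CAGAC read on the other strand. The SMAD box, searched on both strands, was found in 6 of 9 member windows and in 44% of all windows; the box of INHBA lies past the start and is not in the stretch shown. The NF-κB consensus was found in 0 of 9 member windows and in 6.39% of all windows. These are matches of letters in a short window and not sites of binding.

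INHBA (ENSG00000122641) encodes the inhibin beta A chain, which pairs into activin A. It was higher after irradiation and much lower in the knockdown. Untreated libraries held 91.2, 90.2, 97.8, 74.6 and 138 CPM, the last being replicate 5. Libraries at 1.5 h held 149.0, 149, 130, 145 and 160 CPM, and those at 7 days 138, 152, 134, 151 and 157 CPM. Both irradiated groups thus lay above untreated replicates 1 to 4 and overlapped replicate 5. The log2 fold change was 0.58 (SE 0.11, adjusted p = 6.21e-04 by edgeR's quasi-likelihood test and the Benjamini-Hochberg method) at 1.5 h and 0.57 (SE 0.11, adjusted p = 9.77e-05) at 7 days. Without untreated replicate 5 these were 0.72 and 0.70. Without untreated replicate 4 they were 0.48 and 0.46, below the threshold of 0.5 on the log2 scale that a call required beside an adjusted p under 0.05. Within lane 3 the difference at 1.5 h was 0.04, and with the lane as a factor in the model the changes were 0.04 at 1.5 h and -0.03 at 7 days. These values rest on replicate 5, the only untreated library on a lane shared with another group. The 2 irradiated groups overlapped (log2 difference between them -0.003, 95% interval -0.23 to 0.22).

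In NFKBIA knockdown cells INHBA stood at 29.6, 28.4, 27.1, 26.0 and 26.8 CPM, below every library of the other 3 groups. This is 3.56-fold below untreated cells (log2 fold change -1.83, SE 0.11, adjusted p = 9.24e-11, edgeR's quasi-likelihood test), and the log2 change was -1.70 without untreated replicate 5. Set directly against the knockdown, cells at 7 days held 5.30-fold more INHBA (log2 difference 2.41, SE 0.11, adjusted p = 2.22e-13), and within lane 5, which held 3 libraries of 7 days and 1 of the knockdown, the log2 difference was 2.31. By their means the groups thus ran from the knockdown through untreated cells to the irradiated groups, but through replicate 5 the untreated libraries overlapped both irradiated groups, and the knockdown alone lay apart from the rest. In a bulk library, fewer cells that transcribe a gene and less RNA per cell cannot be told apart, here and for the genes that follow.

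BMP2 (ENSG00000125845), an osteogenic BMP, rose at both times after irradiation. Untreated libraries held 4.34, 3.29, 3.73, 3.92 and 3.95 CPM, and those at 1.5 h 7.49, 6.34, 6.22, 5.04 and 6.88 CPM. At 7 days the values were 13.2, 13.4, 13.8, 13.9 and 15.04 CPM, so that the 3 groups did not overlap and lay in the order of time. The rise was 1.67-fold at 1.5 h (log2 fold change 0.74, SE 0.10, adjusted p = 1.54e-05) and 3.61-fold at 7 days (log2 fold change 1.85, SE 0.10, adjusted p = 7.49e-13, edgeR's quasi-likelihood test). The step from 1.5 h to 7 days was itself 2.17-fold (log2 difference 1.11, SE 0.09), and 1.17 on the log2 scale within lane 4. In lane 3 the rise at 1.5 h was 0.75 on the log2 scale, close to the value over all libraries. Knockdown libraries held 4.68, 3.64, 3.62, 3.85 and 4.003 CPM and overlapped untreated ones (log2 fold change 0.05, 95% interval -0.17 to 0.27). BMP2 is a low-count gene, with 83 to 149 reads in untreated libraries and 409 to 479 at 7 days.

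BMP4 (ENSG00000125378), a second BMP ligand active in bone, fell in all 3 treated groups. It stood at 109.8, 91.7, 108, 99.8 and 153 CPM in untreated cells. At 1.5 h it was at 52.1, 48.7, 47.0, 50.5 and 52.8 CPM, at 7 days at 57.4, 56.1, 62.4, 52.8 and 48.4 CPM, and in the knockdown at 52.4, 56.0, 54.5, 54.2 and 52.2 CPM. Every treated library lay below every untreated one, and the 3 treated groups overlapped. The log2 fold change was -1.16 at 1.5 h (SE 0.10, adjusted p = 2.50e-08), -1.02 at 7 days (SE 0.10, adjusted p = 1.12e-08) and -1.06 in the knockdown (SE 0.10, adjusted p = 3.48e-08, edgeR's quasi-likelihood test). Without untreated replicate 5, in which BMP4 was highest, the changes were -1.03, -0.90 and -0.94. All 3 comparisons share the untreated libraries. Within lane 3, where replicate 5 is the only untreated library, the fall at 1.5 h was -1.63.

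The different courses of the 2 BMP genes changed their ratio within each library, a quantity that no scaling between libraries enters. Per kb of gene length, BMP2 reads were 2.21 to 3.38% of BMP4 reads in untreated libraries, 8.53 to 12.3% at 1.5 h and 18.95 to 26.6% at 7 days. In the knockdown the share was 5.56 to 7.64%. The 4 groups did not overlap; this ratio was chosen after the values had been seen and carries no test.

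**Figure D1:**
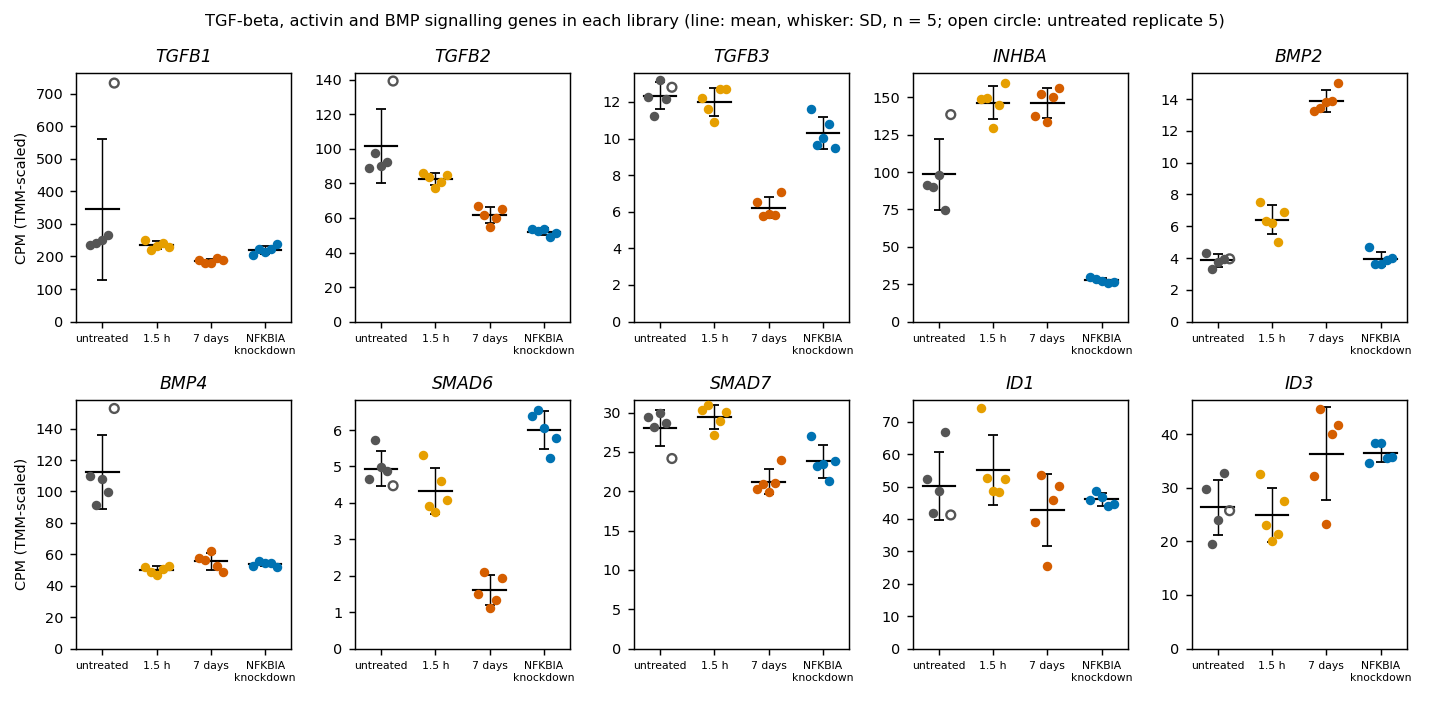
CPM of each of the 10 genes (vertical axes, each from 0) in the 5 libraries of each group, with the mean and the SD; the open circle is untreated replicate 5. BMP2 is highest at 7 days and INHBA lowest in the knockdown, BMP4 is highest in untreated cells, and the open circle reaches 733 CPM for TGFB1.

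All 3 TGF-beta ligands were called lower at 7 days. TGFB1 (ENSG00000105329) was at 237, 242, 249.5, 265 and 733 CPM in untreated cells, so that replicate 5 held more than any other of the 20 libraries. It was at 220.3 to 251.7 CPM at 1.5 h (median 233), at 179 to 195 CPM at 7 days (median 188) and at 204 to 237 CPM in the knockdown (median 222). All libraries at 7 days lay below all untreated ones. With all libraries the log2 fold change was -0.89 at 7 days (SE 0.22, adjusted p = 0.00151, edgeR's quasi-likelihood test) and -0.65 in the knockdown (SE 0.22, adjusted p = 0.0236), both called, and -0.55 at 1.5 h (SE 0.22, adjusted p = 0.0784), not called. Both calls ended without untreated replicate 5, which left -0.44 (SE 0.05, adjusted p = 5.93e-08) at 7 days, -0.19 in the knockdown and -0.09 at 1.5 h. At 1.5 h the change was called when any 1 of untreated replicates 1 to 4 was left out (-0.66 to -0.65), and with the lane as a factor (-1.64, adjusted p = 4.23e-11); within lane 3 it was -1.64. The knockdown call also ended without knockdown replicate 1 (adjusted p = 0.0518). In GENCODE 29 the TGFB1 gene overlaps HNRNPUL1, CCDC97, AC011462.1 and TMEM91 on the other strand. HNRNPUL1 was at 1154 CPM in untreated replicate 5 against 480.1 to 577 CPM in the other untreated libraries, CCDC97 at 91.1 against 47.8 to 51.8 CPM, AC011462.1 at 55.7 against 42.3 to 51.0 CPM and TMEM91 at 2.81 against 3.23 to 5.77 CPM. The part of overlapping reads in the TGFB1 value was not tested.

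TGFB2 (ENSG00000092969) was at 88.8, 97.8, 90.0, 92.1 and 139 CPM in untreated libraries, replicate 5 again being highest. It was at 86.1, 83.9, 77.6, 80.8 and 85.1 CPM at 1.5 h, at 67.0, 61.7, 54.6, 60.04 and 65.4 CPM at 7 days and at 53.9, 52.4, 53.5, 48.9 and 51.5 CPM in the knockdown. The 4 groups did not overlap, in the order untreated, 1.5 h, 7 days and knockdown. The log2 fold change was -0.72 at 7 days (SE 0.09, adjusted p = 9.95e-07) and -0.96 in the knockdown (SE 0.09, adjusted p = 7.25e-08, edgeR's quasi-likelihood test), and -0.60 and -0.84 without untreated replicate 5. At 1.5 h it was -0.29 (SE 0.09, adjusted p = 0.0279), under the fold threshold, and -0.16 without untreated replicate 5. It was -0.76 within lane 3 and -0.75 with the lane as a factor. Both values rest on replicate 5, the only untreated library in lane 3.

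TGFB3 (ENSG00000119699) was called lower at 7 days and in neither of the other comparisons with untreated cells. In GENCODE 29 it overlaps the counted gene IFT43 on the other strand, and the part of overlapping reads was not tested. Untreated libraries held 12.3, 11.2, 13.2, 12.2 and 12.8 CPM, with 12.2, 11.6, 10.9, 12.7 and 12.7 CPM at 1.5 h. At 7 days it was at 6.55, 5.78, 5.88, 5.84 and 7.05 CPM, below every other library. This was a log2 fold change of -0.99 (SE 0.07, adjusted p = 2.55e-10, edgeR's quasi-likelihood test), and -0.997 without untreated replicate 5. Knockdown libraries held 9.49 to 11.6 CPM (log2 fold change -0.26, adjusted p = 0.00688, under the fold threshold). The fall at 7 days was larger than that in the knockdown (log2 difference -0.73, SE 0.07, adjusted p = 3.81e-08) and than the change at 1.5 h (log2 difference -0.95, SE 0.07, adjusted p = 4.61e-10).

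**Figure D2:**
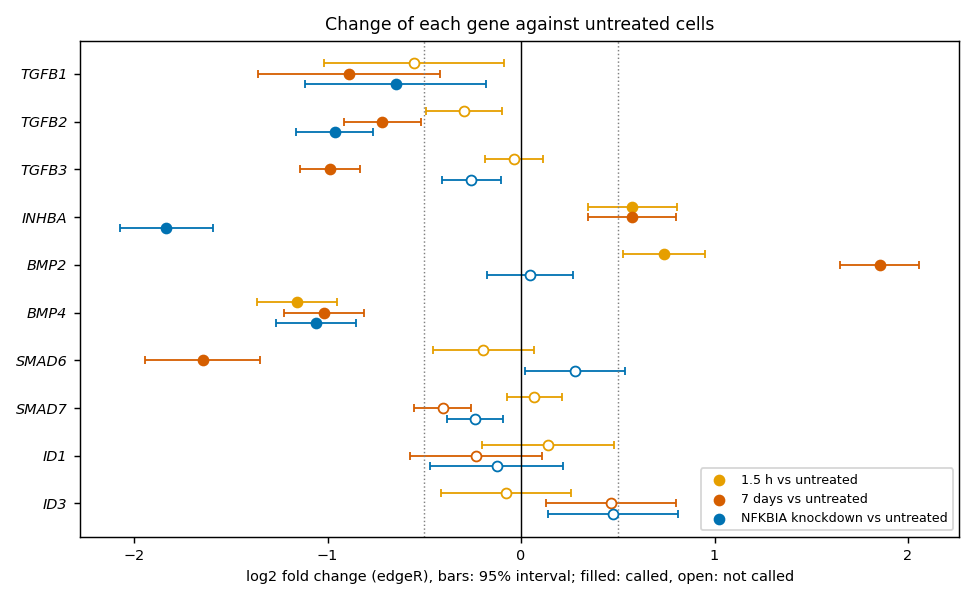
Log2 fold change of each gene against untreated cells at 1.5 h, at 7 days and in the knockdown, with 95% intervals as bars; filled points were called and dotted lines mark the fold threshold of 0.5. INHBA lies at 0.58 and 0.57 after irradiation and at -1.83 in the knockdown, while the 3 BMP4 points lie between -1.16 and -1.02.

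Of the inhibitory SMADs, SMAD6 (ENSG00000137834), which acts chiefly on BMP signals, fell at 7 days. It was at 4.66, 5.73, 4.98, 4.88 and 4.47 CPM in untreated libraries and at 5.31, 3.92, 3.74, 4.599 and 4.08 CPM at 1.5 h, which overlapped. At 7 days it was at 1.49, 2.10, 1.12, 1.34 and 1.93 CPM, below every library of the other groups, from 39 to 64 reads per library. This was a log2 fold change of -1.65 (SE 0.14, adjusted p = 1.76e-09, edgeR's quasi-likelihood test), a level 3.13-fold below untreated cells, and -1.70 without untreated replicate 5. Knockdown libraries held 6.39, 6.55, 6.07, 5.24 and 5.78 CPM (log2 fold change 0.28, SE 0.12, adjusted p = 0.0743). The difference between 7 days and the knockdown was -1.92 on the log2 scale (SE 0.14, adjusted p = 1.61e-10), with -2.11 within lane 5, and that between 7 days and 1.5 h was -1.45 (SE 0.14), with -1.26 within lane 4.

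SMAD7 (ENSG00000101665), the inhibitor of TGF-beta, activin and BMP receptors alike, moved less. It was at 29.4, 28.1, 29.9, 28.6 and 24.2 CPM in untreated libraries and at 27.1 to 31.0 CPM at 1.5 h (median 30.1). At 7 days it was at 20.2, 21.0, 19.9, 21.0 and 24.03 CPM, below every untreated library, by -0.41 on the log2 scale (SE 0.07, adjusted p = 2.83e-05, edgeR's quasi-likelihood test), which is under the fold threshold. In the knockdown it was at 21.3 to 27.0 CPM (log2 fold change -0.24, SE 0.07, adjusted p = 0.00796). Between 7 days and 1.5 h the difference was -0.47 on the log2 scale, and it passed the threshold only without 1.5 h replicate 3 (-0.53) or 4 (-0.51), without 7 days replicate 5 (-0.52), with the lane as a factor (-0.52) or with no filter on low counts (-0.50).

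ID1 (ENSG00000125968) and ID3 (ENSG00000117318), the ID genes of the set, varied widely between the libraries of the untreated and irradiated groups, and less in the knockdown. ID1 was at 52.4, 41.9, 48.7, 66.8 and 41.2 CPM in untreated cells, at 74.2, 52.6, 48.7, 48.2 and 52.5 CPM at 1.5 h, at 38.9, 53.5, 25.6, 45.8 and 50.2 CPM at 7 days and at 46.0, 48.8, 46.9, 44.0 and 44.5 CPM in the knockdown. All 4 groups overlapped and no comparison was called. The log2 fold change was 0.14 at 1.5 h (95% interval -0.20 to 0.48), -0.23 at 7 days (-0.58 to 0.11) and -0.13 in the knockdown (-0.47 to 0.22). Between 7 days and 1.5 h it was -0.37 (SE 0.16, adjusted p = 0.0530, edgeR's quasi-likelihood test).

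ID3 was at 29.8, 19.5, 23.99, 32.7 and 25.7 CPM in untreated cells and at 32.6, 23.1, 20.1, 21.4 and 27.5 CPM at 1.5 h. It was at 32.1, 44.8, 23.2, 40.0 and 41.7 CPM at 7 days and at 34.5, 38.3, 38.4, 35.6 and 35.8 CPM in the knockdown. The knockdown libraries all lay above the untreated ones, while those at 7 days overlapped them through replicates 1 and 3. Against untreated cells, the change was 0.46 on the log2 scale at 7 days (SE 0.16, adjusted p = 0.0145) and 0.47 in the knockdown (SE 0.16, adjusted p = 0.0214, edgeR's quasi-likelihood test), both under the fold threshold. Leaving out untreated replicate 1 or 4 brought both past it (0.51 and 0.53 at 7 days, 0.52 and 0.54 in the knockdown), as did scaling by library size alone (0.51 and 0.53), and leaving out 7 days replicate 3 did so at 7 days (0.58). The difference between 7 days and 1.5 h, 0.54 (SE 0.16, adjusted p = 0.00541), was called, but fell to between 0.43 and 0.49 without 1.5 h replicate 2, 3 or 4 or 7 days replicate 2, 4 or 5.

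Much of that spread was common to both ID genes. Untreated replicate 4, 1.5 h replicate 1 and 7 days replicate 2 were highest for both in their groups, and 7 days replicate 3 was lowest for both. The ratio of ID1 to ID3 within a library, per kb, was accordingly narrower than either level. It was 234 to 313% in untreated cells, 278 to 354% at 1.5 h, 160 to 176% at 7 days and 178 to 194% in the knockdown. Untreated and 1.5 h libraries overlapped, and all of them lay above all libraries at 7 days and in the knockdown, 7 days replicate 3 included. The ratio was chosen after the values had been seen and carries no test.

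Counted over the 10 genes, 2 rose (INHBA and BMP2) and 1 fell (BMP4) at 1.5 h, where 2.08% of the 14992 genes tested rose and 1.57% fell. At 7 days the same 2 rose and 5 fell (TGFB1, TGFB2, TGFB3, BMP4 and SMAD6), against 16.7% and 14.4% of all genes. In the knockdown none rose and 4 fell (TGFB1, TGFB2, INHBA and BMP4), against 5.18% and 7.53%; DESeq2 also called none higher, and 2 of the 10 had an unadjusted p under 0.05 with a positive change in edgeR. Without untreated replicate 5 the number called was 3, 6 and 3 in place of 3, 7 and 4. The libraries of both groups did not overlap for 3 of the 10 genes at 1.5 h, 7 at 7 days and 4 in the knockdown, against 12.3%, 44.8% and 24.1% of all genes.

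Between the 2 times after irradiation, BMP2 and ID3 were higher at 7 days and TGFB3 and SMAD6 lower, where 16.8% of all genes were called higher and 12.6% lower. For 6 of the 10 genes these groups did not overlap, as for 61.8% of all genes. Between 7 days and the knockdown, INHBA and BMP2 were higher at 7 days and TGFB3 and SMAD6 lower, where 15.8% and 9.89% of all genes were called higher and lower, and again 6 of 10 did not overlap, against 60.7%. The median log2 fold change of the 10 genes was -0.06 at 1.5 h, -0.56 at 7 days and -0.25 in the knockdown, beside -0.03, 0.01 and -0.01 over all genes tested.

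**Figure D3:**
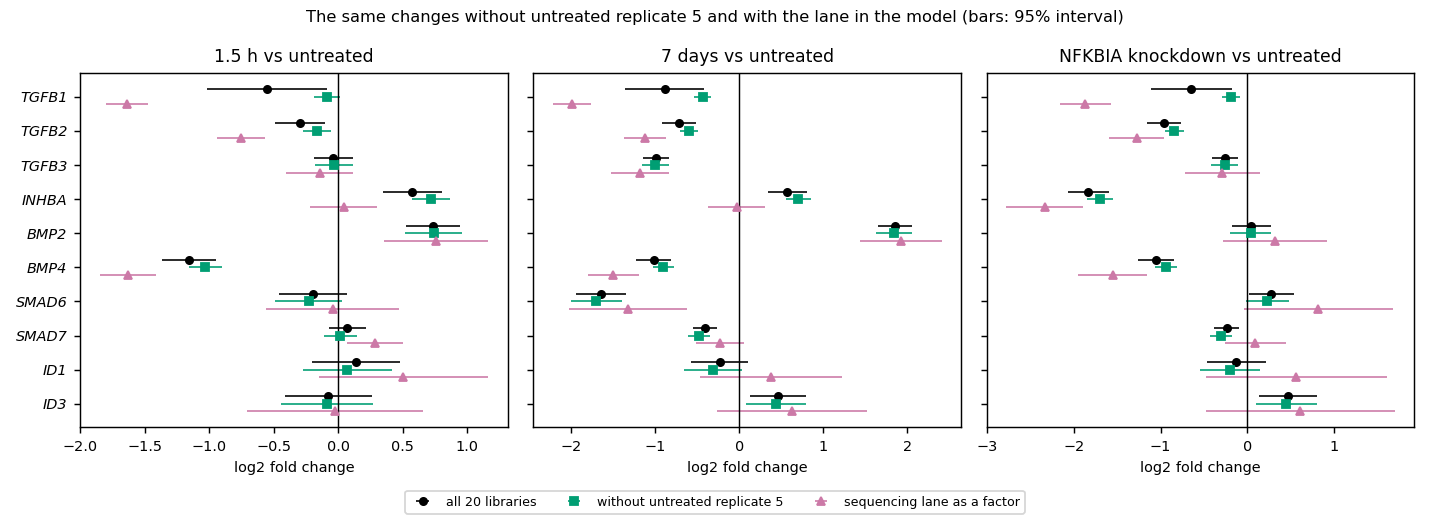
Log2 fold change of each gene in the 3 comparisons with untreated cells, from all 20 libraries, without untreated replicate 5, and with the sequencing lane as a factor, with 95% intervals as bars. With the lane as a factor these comparisons rest on untreated replicate 5, the only untreated library on a shared lane. TGFB1 moves from -0.65 to -0.19 and -1.87 in the knockdown and from -0.89 to -0.44 and -1.99 at 7 days, and INHBA after irradiation lies near 0 with the lane as a factor, while BMP2 at 7 days stays between 1.84 and 1.92.

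Levels of the 10 genes were set side by side as CPM per kb of the gene length in the table. In untreated cells the order of the means was TGFB1 (107), ID1 (40.7), BMP4 (36.5), TGFB2 (19.7), ID3 (14.7), INHBA (13.1), SMAD7 (7.60), TGFB3 (2.51), SMAD6 (1.35) and BMP2 (1.07). The ranges over libraries overlapped between ID1 and BMP4, between TGFB2 and ID3 and between ID3 and INHBA. At 7 days BMP2 (3.85) stood above TGFB3 (1.27) and SMAD6 (0.436), with no overlap between these 3, and ID3, INHBA and BMP4 overlapped at 20.2, 19.4 and 17.98, as did ID1 (34.7) and ID3. In the knockdown INHBA (3.66) stood below SMAD7 (6.44) and above TGFB3 (2.10), and no neighbours in the order overlapped. TGFB1 was the highest and ID1 the next in all 4 groups.

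**Figure D4:**
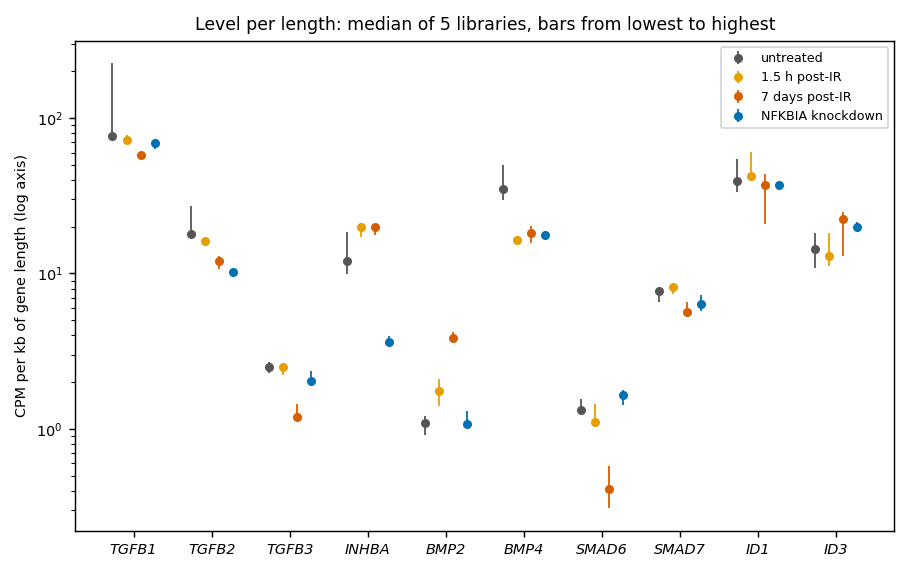
CPM per kb of gene length on a log axis, as the median of 5 libraries with bars from the lowest to the highest library, for each gene and group. TGFB1 is highest in every group, BMP2 climbs from a median of 1.09 in untreated cells to 3.83 at 7 days, and SMAD6 falls to 0.407 there.

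The genes whose 3 changes against untreated cells lay nearest to those of a member were found over 13486 genes by the root mean square difference of the log2 fold changes. For INHBA the nearest was PDGFC, which encodes a platelet-derived growth factor chain, with changes of 0.34, 0.51 and -1.72 and a difference of 0.157. The next, EI24, was at 0.382. For BMP2 the nearest were GLS2, a mitochondrial glutaminase gene (0.84, 1.77 and 0.16), at a difference of 0.099, and KLHL21 (0.58, 1.93 and 0.16), at 0.123. For SMAD6 they were PHGDH, which encodes the first enzyme of serine synthesis (-0.23, -1.55 and 0.32), and FUT1, and for BMP4 a gene given without a symbol (ENSG00000203392), at 0.0897, and ZNF503, at 0.236. TGFB1 lay nearest to PRR14 and IQSEC1, TGFB2 to CALB2 and CCDC85C, and TGFB3 to H2AFV and a gene without a symbol (ENSG00000187951). All 3 changes share the untreated libraries, replicate 5 included.

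The rest of the pathway was taken as a list of 94 further genes in 8 roles, of which 92 were in the table and 73 were tested. At 1.5 h 6 rose and 4 fell, at 7 days 18 rose and 15 fell, and in the knockdown 3 rose and 16 fell, 10, 33 and 19 in all. Over all genes tested, 2.08% rose and 1.57% fell at 1.5 h, 16.7% and 14.4% at 7 days, and 5.18% and 7.53% in the knockdown. Without untreated replicate 5 the totals were 7, 35 and 15. The median log2 fold change of the 73 was 0.05, -0.04 and -0.12. Between 7 days and the knockdown 16 were higher and 12 lower, beside 15.8% and 9.89% of all genes, and between 7 days and 1.5 h 20 were higher and 18 lower, beside 16.8% and 12.6%.

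Among the other ligands, 12 were tested. At 7 days 4 rose and 3 fell, beside 16.7% and 14.4% of all genes. At 1.5 h 1 fell, beside 1.57%, and in the knockdown 1 rose, beside 5.18%. BMP5 was at 82.1 ± 5.92 CPM (SD, n = 5) in untreated cells and 50.3 ± 4.92 CPM at 7 days (log2 fold change -0.70). AMH, the anti-Müllerian hormone gene, fell by 1.197 on the log2 scale at 7 days, from 1.78 to 0.795 CPM. GDF9 rose by 0.66 at 7 days and by 0.94 in the knockdown on that scale. INHA, the inhibin alpha chain gene, was called higher at 7 days and INHBC lower at 1.5 h, from at most 26 and 15 reads in a library. The INHA call ended without 7 days replicate 2 (adjusted p = 0.0515), and that of INHBC without untreated replicate 5 (adjusted p = 0.0740) or 1.5 h replicate 1, 4 or 5, by edgeR's quasi-likelihood test; DESeq2 called no ligand of the list at 1.5 h.

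Of 13 receptors, 2 rose and 2 fell at 7 days, beside 16.7% and 14.4% of all genes. At 1.5 h 1 rose, beside 2.08%, and in the knockdown 1 rose, beside 5.18%. ACVR1C, the type I receptor ALK7, went from 1.52 ± 0.198 to 2.47 ± 0.295 CPM at 1.5 h and 3.70 ± 0.470 CPM at 7 days (n = 5 each), with log2 fold changes of 0.69 and 1.27. BMPR1B, a BMP type I receptor, fell from 21.0 ± 3.26 to 9.94 ± 0.822 CPM at 7 days (log2 fold change -1.08), and the activin receptor gene ACVR2B fell there by 0.51 on the log2 scale. The ACVR2B call ended without untreated replicate 2 (-0.43) or 3 (-0.48) or 7 days replicate 2 (-0.50). ACVRL1 was called at 7 days and in the knockdown from at most 27 reads in a library, and the call at 7 days ended without untreated replicate 1 (adjusted p = 0.0520). TGFBR2, the type II receptor for TGF-beta, was at 149 ± 17.7 CPM in untreated cells and 197 ± 6.08 CPM at 7 days, a log2 change of 0.40 under the fold threshold. None of the 6 receptor and common SMADs was called against untreated cells by edgeR or DESeq2, while 3 had an unadjusted p under 0.05 in edgeR at 1.5 h, 5 at 7 days and 0 in the knockdown. SMAD3 had a log2 change of 0.43 at 7 days, and 1 of the 6 was called there without untreated replicate 5, when that of SMAD3 was 0.50.

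Among the 6 genes of latency and activation, which hold TGF-beta in or release it from its latent complex, LRRC32, which encodes the membrane anchor GARP, had the widest range. It rose from 2.08 ± 0.346 CPM in untreated cells to 5.67 ± 0.312 CPM at 7 days (log2 fold change 1.43) and fell to 0.272 ± 0.0623 CPM in the knockdown (log2 fold change -2.91, n = 5 each). THBS1, whose product thrombospondin-1 can activate latent TGF-beta, fell in the knockdown from 395 ± 56.7 to 86.3 ± 6.66 CPM (log2 fold change -2.20). Of the latent TGF-beta binding proteins, LTBP3 rose by 0.55 (0.49 without untreated replicate 1) and LTBP2 fell by 0.51 (-0.46 and -0.48 without untreated replicate 2 or 3) on the log2 scale at 7 days, and LTBP1 had changes between 0.01 and 0.09.

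Of 9 secreted antagonists, 2 rose and 3 fell at 7 days (1 and 5 without untreated replicate 5), beside 16.7% and 14.4% of all genes. In the knockdown 4 fell, beside 7.53%. NOG, which encodes the BMP antagonist noggin, fell from 83.8 ± 9.81 to 34.2 ± 4.63 CPM at 7 days (log2 fold change -1.29), and CHRDL1, of the chordin family, by 1.16 there and by 0.56 in the knockdown on the log2 scale. BMPER rose by 0.94 and NBL1 by 0.56 on that scale at 7 days, NBL1 by 0.43 without untreated replicate 5, under the threshold. FST, the follistatin gene whose product binds activin and which was named after its values had been seen, went from 43.1 ± 6.50 CPM without treatment to 59.9 ± 3.32 CPM at 7 days (log2 fold change 0.47, under the threshold) and to 26.2 ± 1.27 CPM in the knockdown (log2 fold change -0.72).

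The 10 intracellular and membrane negative regulators included 1 that rose and 2 that fell at 7 days, beside 16.7% and 14.4% of all genes. At 1.5 h 1 fell, beside 1.57%, and in the knockdown 4 fell, beside 7.53%. LDLRAD4, a membrane inhibitor of SMAD2 and SMAD3 activation, fell from 66.5 ± 9.06 to 17.9 ± 1.01 CPM at 7 days (log2 fold change -1.89) and to 36.9 ± 2.08 CPM in the knockdown (-0.85). PMEPA1, of the same family and itself a TGF-beta target, fell in the knockdown from 612 ± 18.1 to 288 ± 10.6 CPM (-1.09). Its log2 fold change was -0.37 at 1.5 h and -0.31 at 7 days, both under the fold threshold. TGIF1, a SMAD corepressor gene, fell by 0.75 on the log2 scale at 1.5 h, and TGIF2 by 0.75 at 7 days and by 0.59 in the knockdown. NEDD4L, a ubiquitin ligase gene, rose by 0.70 at 7 days on that scale.

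Of 10 TGF-beta targets, 4 rose and none fell at 1.5 h, 5 rose and 2 fell at 7 days, and none rose and 5 fell in the knockdown. The shares of all genes that rose and fell were 2.08% and 1.57%, 16.7% and 14.4%, and 5.18% and 7.53%. Without untreated replicate 5, 3 rose at 1.5 h and 3 fell in the knockdown. With all libraries DESeq2 gave the same counts as edgeR, and at an unadjusted p under 0.05 edgeR had 2 lower at 1.5 h and 1 higher in the knockdown. Set directly against the knockdown, 7 were higher at 7 days and 0 lower, beside 15.8% and 9.89% of all genes, with 0 lower in DESeq2 and at an unadjusted p under 0.05 as well. ACTA2, smooth muscle actin, rose from 13.5 ± 1.39 to 36.0 ± 1.73 CPM at 7 days (log2 fold change 1.42). In GENCODE 29 ACTA2 overlaps the counted genes STAMBPL1 and FAS on the other strand, and the part of overlapping reads was not tested. TAGLN, the actin-binding transgelin gene, fell at 7 days (log2 fold change -0.86) and in the knockdown (-1.91), JUNB rose at 1.5 h alone among the 3 comparisons (1.14), and CCN2, a matricellular growth factor gene, fell in the knockdown (-0.74). These genes also respond to signals other than TGF-beta.

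Of the 7 further BMP targets tested, ATOH8 fell from 4.08 ± 0.352 to 2.76 ± 0.297 CPM at 1.5 h (log2 fold change -0.56) and to 0.956 ± 0.126 CPM at 7 days (-2.10). ID2 fell at 7 days (-1.17) and in the knockdown (-0.59, and -0.45 without untreated replicate 5), and ID4 rose at 1.5 h (0.98). HEY1 rose at 7 days (0.78) and in the knockdown (0.68). RUNX2, the osteoblast transcription factor gene, was called lower at 1.5 h (-0.56), and the log2 change was -0.26 without untreated replicate 5; the call also ended without 1.5 h replicate 1 or 4. Of the 4 ID genes, ID2 was thus the one called at 7 days; the log2 fold changes of ID1, ID3 and ID4 there were -0.23, 0.46 and -0.32, none of them called.

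**Figure D5:**
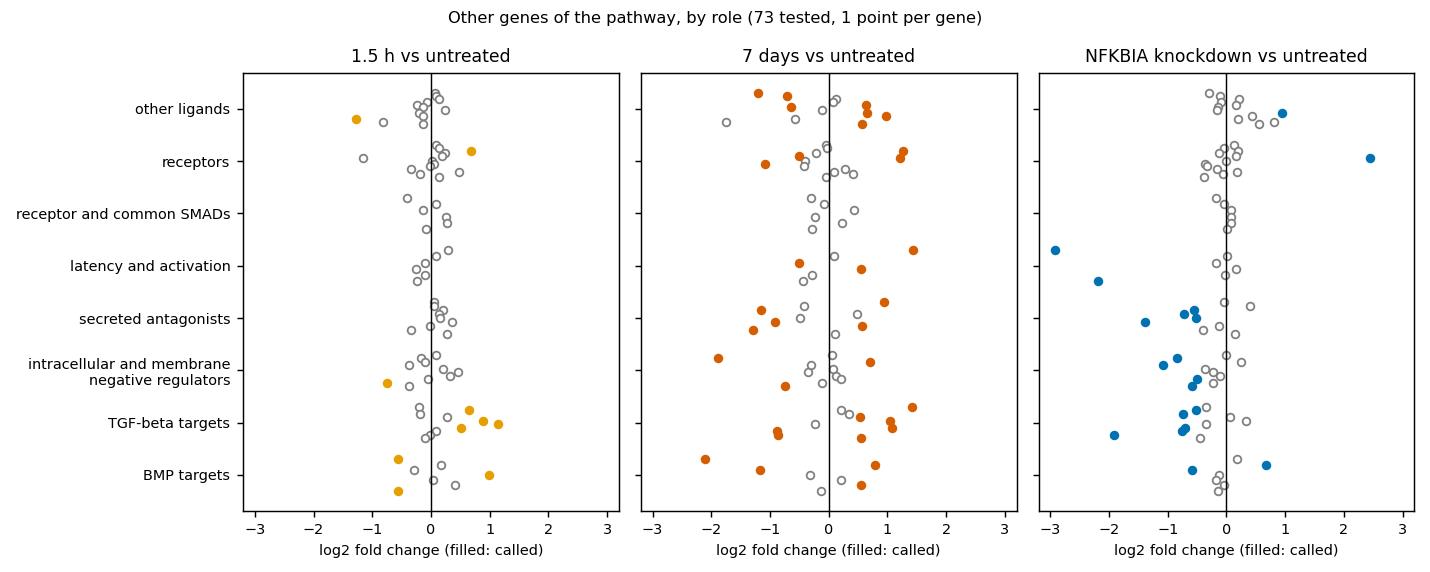
Log2 fold change of the 73 tested pathway genes against untreated cells, 1 point per gene, by role (vertical axis), with called genes filled. The TGF-beta targets lie mostly to the right at 7 days (5 called higher, 2 lower) and to the left in the knockdown (5 called lower), and the 6 receptor and common SMADs have no filled point.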

How the data were processed

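RNA-seq of stranded mRNA libraries was done on 20 U2OS libraries. The authors deposited 1 table of raw read counts per gene with a gene length. Their processing notes name bcl2fastq, Trimmomatic, STAR 2.4.2a and the hg19 build; the counting tool, annotation and strand setting are not given in the sources used here, so reads of overlapping genes may be shared. From these counts, library sizes were scaled by TMM, genes were filtered with filterByExpr (minimum count 10), and 1 quasi-likelihood model with a term per group was fitted in edgeR 4.0.16 (R 4.3.3), after tests on simulated data. Genes were called at an absolute log2 fold change above 0.5 with a Benjamini-Hochberg adjusted p under 0.05 over 14992 genes. CPM use TMM-scaled library sizes. Members and lists were chosen with earlier results of these data known. Besides the members, the text names NFKBIA and CDKN1A as checks, from each role of the pathway list up to 4 called genes with the largest change and the other gene with the highest mean CPM over the libraries, not scaled by length, and the 2 nearest genes of each called member. Some genes that this rule names are not reported here. SEs derive from the F statistic, and 95% intervals from them with 16 residual degrees of freedom. DESeq2 1.42.0, other scalings, filters, covariates and the omission of each library were alternatives. GENCODE 29 gave names of overlapping genes and RefSeq the promoters.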

Additional observations from a re-analysis of the deposited data

Results flagged for a closer look

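Dixon's rule was applied to 40 sets of 5 libraries (10 genes in 4 groups), where chance alone marks about 1 in 20 sets. It marked 4 single values that lay far from the rest of their group. Untreated replicate 5 was marked for TGFB1, at 733 CPM with the next library at 265 CPM, and for TGFB2, at 139 CPM with the next at 97.8 CPM. For SMAD7, 7 days replicate 5 was marked, at 24.03 CPM with the next at 21.0 CPM. For ID1, 1.5 h replicate 1 was marked, at 74.2 CPM with the next at 52.6 CPM.

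By the test of 7 days against 1.5 h, the change after irradiation was called as different between the times for 4 genes. The log2 difference was 1.11 for BMP2, -0.95 for TGFB3, -1.45 for SMAD6 and 0.54 for ID3. For ID3 the groups overlapped, and leaving out a single library took the difference as low as 0.43, under the fold threshold. INHBA was called higher at 7 days and lower in the knockdown, with a difference of 2.41 on the log2 scale by the test of those groups against each other. That difference does not bear on the call at 7 days (0.57), which was lost without untreated replicate 4 (0.46) and with the lane as a factor (-0.03), and the libraries at 7 days overlapped the untreated ones.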

How the results depend on the processing

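Across 1150 values of the 10 genes under alternatives, 1090 kept their side of the threshold and their direction or moved by less than the spread, 18 lost a call, 28 gained one and 13 moved by more than the spread; 18 values called in neither fit changed sign. The 1 value that reversed was INHBA at 7 days with the lane as a factor, at -0.029. In that fit every comparison with untreated cells rests on untreated replicate 5, the only untreated library on a shared lane. Lane and library cannot be told apart there. In total, with no fold threshold, 7 members were called in the knockdown in place of 4, and 26, 53, 33 and 48 pathway genes at 1.5 h, at 7 days, in the knockdown and at 7 days against the knockdown, in place of 10, 33, 19 and 28; this setting calls more by its construction. With Bonferroni's stricter adjustment, 6, 17 and 24 pathway genes were called at 1.5 h, at 7 days and at 7 days against 1.5 h (10, 33 and 38 otherwise). With the lane as a factor, the log2 fold change at 1.5 h was 0.76 for BMP2 and -1.63 for BMP4. It was 0.04 for INHBA, -1.64 for TGFB1 and -0.755 for TGFB2. These values too rest on untreated replicate 5, and the cause of their moves was not tested. Leaving out each library in turn gave 3 to 4 members called at 1.5 h, 6 to 8 at 7 days, 3 to 5 in the knockdown, 3 to 4 at 7 days against 1.5 h and 4 throughout at 7 days against the knockdown. For the pathway genes it gave 7 to 12, 29 to 35, 15 to 21, 36 to 39 and 28 to 30. Same-numbered libraries did not deviate together (30 pairs, r from -0.25 to 0.12, 2 above 0.1), so the numbers were not taken as pairs. With a replicate block, 3, 7, 4, 4 and 4 members were called in the 5 comparisons, as without it, and 9, 33, 20, 38 and 28 pathway genes. Other scalings moved the median of all genes by less than 0.1 on the log2 scale. Depth limits SMAD6 at 7 days, with 39 to 64 reads per library, and BMP2 in untreated cells, with 83 to 149; intervals cover the spread between libraries.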
